A study of Mus musculus with 6 samples.

Results

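The genes described here are 50 genes of cell division, out of 32285 genes in the deposited matrices. They were chosen by symbol as genes whose products replicate DNA or carry out mitosis, and all 50 were found in the matrices. By role, 12 act in DNA replication and repair, 9 are cyclins and mitotic kinases, 7 build chromosome structure, 7 belong to the kinetochore and centromere, 8 are spindle motors and microtubule proteins and 7 act in cytokinesis. The questions were which cell types of the postnatal mouse brain contained these transcripts, and whether their levels differed between brains injected with lysophosphatidic acid (LPA) and brains injected with vehicle.

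Single-nucleus RNA-seq was carried out on 6 brains, 3 injected with LPA and 3 injected with vehicle. All mice were C57BL/6 S-56 mice, and each received 5 µl into the right lateral ventricle at postnatal day 7. Control mice received the carrier, 0.01% BSA, which the LPA mice received too. Brains were collected at postnatal day 15 without olfactory bulbs and cerebellum, and nuclei negative for NeuN, a protein of neuronal nuclei, were sorted. LPA is a signaling lipid found in blood, and its injection into the ventricle is used as a model of posthemorrhagic hydrocephalus.

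A cell that divides first copies its DNA, and its genes for replication are read most in that S phase. It then condenses its chromosomes, attaches them to the spindle through kinetochores and separates the daughter cells, and the genes for these steps are read most in G2 and mitosis. In the early postnatal brain, oligodendrocyte precursor cells (OPCs), late-born precursors of interneurons that express Dlx genes, microglia and vessel cells are known to divide, whereas neurons and mature oligodendrocytes are not. Cells that build many motile cilia, such as ependymal cells, have left the cell cycle but are known to read part of the mitotic program while they multiply their centrioles.

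Transcription of many mitotic genes is known to depend on 3 short promoter motifs, and 4 promoters are shown here because their genes carry the contrasts described below. Promoter sequences of RefSeq (build GRCm38.p6, from 250 bases before to 50 bases after the start of the gene) were found for 43 of the 50 genes, and there was no entry for Atad2, Dlgap5, Smc4, Ccna2, Aurkb, Cdca2 and Tpx2. Capitals mark the CHR (TTTGAA or its variant TTCGAA), the CCAAT box (CCAAT) and the E2F motif (TTTCCCG, its relative TTTCGCG, the form TTTGCCG and also TTTGGCG), each on either strand. The windows are Top2a at chr11:99024140-99024439 on the minus strand, Mki67 at chr7:135716330-135716629 on the minus strand, Knl1 at chr2:119046869-119047168 on the plus strand and Mcm6 at chr1:128359656-128359955 on the minus strand. Top2a encodes the topoisomerase that untangles replicated chromosomes, Mki67 encodes Ki-67, which coats mitotic chromosomes, Knl1 encodes a scaffold of the kinetochore, and Mcm6 encodes a subunit of the replicative helicase.
Top2a: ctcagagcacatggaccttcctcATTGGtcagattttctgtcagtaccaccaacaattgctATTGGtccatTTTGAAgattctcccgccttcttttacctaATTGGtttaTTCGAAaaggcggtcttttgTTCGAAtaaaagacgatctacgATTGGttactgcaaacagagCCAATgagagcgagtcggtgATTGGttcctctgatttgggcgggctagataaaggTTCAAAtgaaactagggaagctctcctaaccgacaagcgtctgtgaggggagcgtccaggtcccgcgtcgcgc
Mki67: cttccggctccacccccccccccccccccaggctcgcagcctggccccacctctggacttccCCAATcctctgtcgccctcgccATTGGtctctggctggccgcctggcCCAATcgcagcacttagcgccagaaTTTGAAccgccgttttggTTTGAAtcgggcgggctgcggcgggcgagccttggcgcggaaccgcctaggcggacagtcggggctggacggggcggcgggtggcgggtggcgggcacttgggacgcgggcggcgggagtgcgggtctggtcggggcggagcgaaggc
Knl1: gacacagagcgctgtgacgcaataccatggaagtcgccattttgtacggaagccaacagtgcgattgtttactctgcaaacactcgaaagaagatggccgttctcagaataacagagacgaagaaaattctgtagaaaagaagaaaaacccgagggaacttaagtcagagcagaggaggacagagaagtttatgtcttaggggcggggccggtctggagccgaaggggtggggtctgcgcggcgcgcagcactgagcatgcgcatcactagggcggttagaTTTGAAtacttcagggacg
Mcm6: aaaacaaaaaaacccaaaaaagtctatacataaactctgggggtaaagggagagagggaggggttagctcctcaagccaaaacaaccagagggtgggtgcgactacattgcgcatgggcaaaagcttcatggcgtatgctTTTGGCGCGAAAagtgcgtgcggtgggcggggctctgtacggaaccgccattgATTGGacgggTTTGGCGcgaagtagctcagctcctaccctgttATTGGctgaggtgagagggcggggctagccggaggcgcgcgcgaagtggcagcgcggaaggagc

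The Top2a and Mki67 windows held both the CHR and the CCAAT box. The Knl1 window held 1 CHR and neither other motif. The Mcm6 window held CCAAT boxes and E2F motifs, with E2F matches on opposite strands that overlap, and no CHR. Of the 43 genes with a promoter, 26 (60.5%) held a CHR, against 21.7% of the 27025 genes with a RefSeq promoter. A CCAAT box was in 31 (72.1%), against 41.1% of all genes, and an E2F motif was in 16 (37.2%), against 7.65%. A match is a string of letters and not a tested site.

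Cell types were named from lists of marker genes, and each name stands for nuclei like that type. The 50 genes and 137 other cell cycle genes were left out of the clustering, so that these genes could not themselves set the clusters. After filtering, 57443 nuclei remained, 7579 to 11745 per library, with medians of 3732 to 4578 UMIs (unique molecular identifiers, each counting 1 captured transcript) per nucleus. Over all deposited barcodes, before filtering, total UMIs ranged from 50737541 to 54715094 over the LPA libraries and from 48852970 to 65688644 over the vehicle ones, and 8840 nuclei in mixed clusters stayed unnamed. Pdgfra, the receptor that defines OPCs, had a median of 1031 CPM (UMIs per 1000000 UMIs of that cell type in a library) in OPCs and 244 in meningeal nuclei, the next type. Neurons remained despite the sort, with a median Rbfox3 (NeuN) level of 430 CPM. Doublet calls made up 12.3% to 15.7% of nuclei per library, and no pair of libraries shared more than 39 barcodes.

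OPCs were the named type with most of the nuclei that carried several division transcripts. A nucleus was counted when it held UMIs of at least 5 of 47 of the genes, and Anln, Cit and Pola1 were left out of this count because they are known in cells that do not divide. Such nuclei numbered 751 of 57443 (1.31%), and 245 of them were OPCs, 8.06% of 3041 OPCs. Further, 22 of 348 Dlx precursors (6.32%) and 67 of 88 nuclei with markers of cilia formation (76.1%) were counted. These shares are a description over the chosen genes, and no test was made of them.

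The other named types had lower shares. They were 3 of 164 macrophages (1.83%, all 3 in LPA libraries 1 and 2), 1.20% of 1245 mural nuclei, 1.08% of 1199 endothelial nuclei, 0.911% of 4280 meningeal nuclei, 0.788% of 1904 microglia, 0.491% of 10395 astrocytes, 0.233% of 4715 committed or new oligodendrocytes, 0.221% of 906 multiciliated ependymal nuclei and 0.132% of 756 choroid plexus nuclei. Types that do not divide set the background from free RNA and doublets: 61 of 14186 neurons (0.430%, median 5719 UMIs) and 8 of 5376 mature oligodendrocytes (0.149%, median 5221.5 UMIs). OPCs were shallower, with a median of 3182 UMIs, and microglia shallower still, with 1767.5. Of the 61 neurons, 36 (59.0%) were called doublets, against 7.05% of other neurons, whereas 1 of the 245 OPCs was. The shares of committed oligodendrocytes, multiciliated ependymal nuclei and choroid plexus lay near this background. That of astrocytes did too, but their counted nuclei were unlike the background ones. Of the 51 counted astrocytes, 38 held at least 8 of the genes, 23 held at least 15 and 1 was called a doublet. Of the 61 neurons, 29 held at least 8 and 8 held at least 15.

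**Figure D1:**
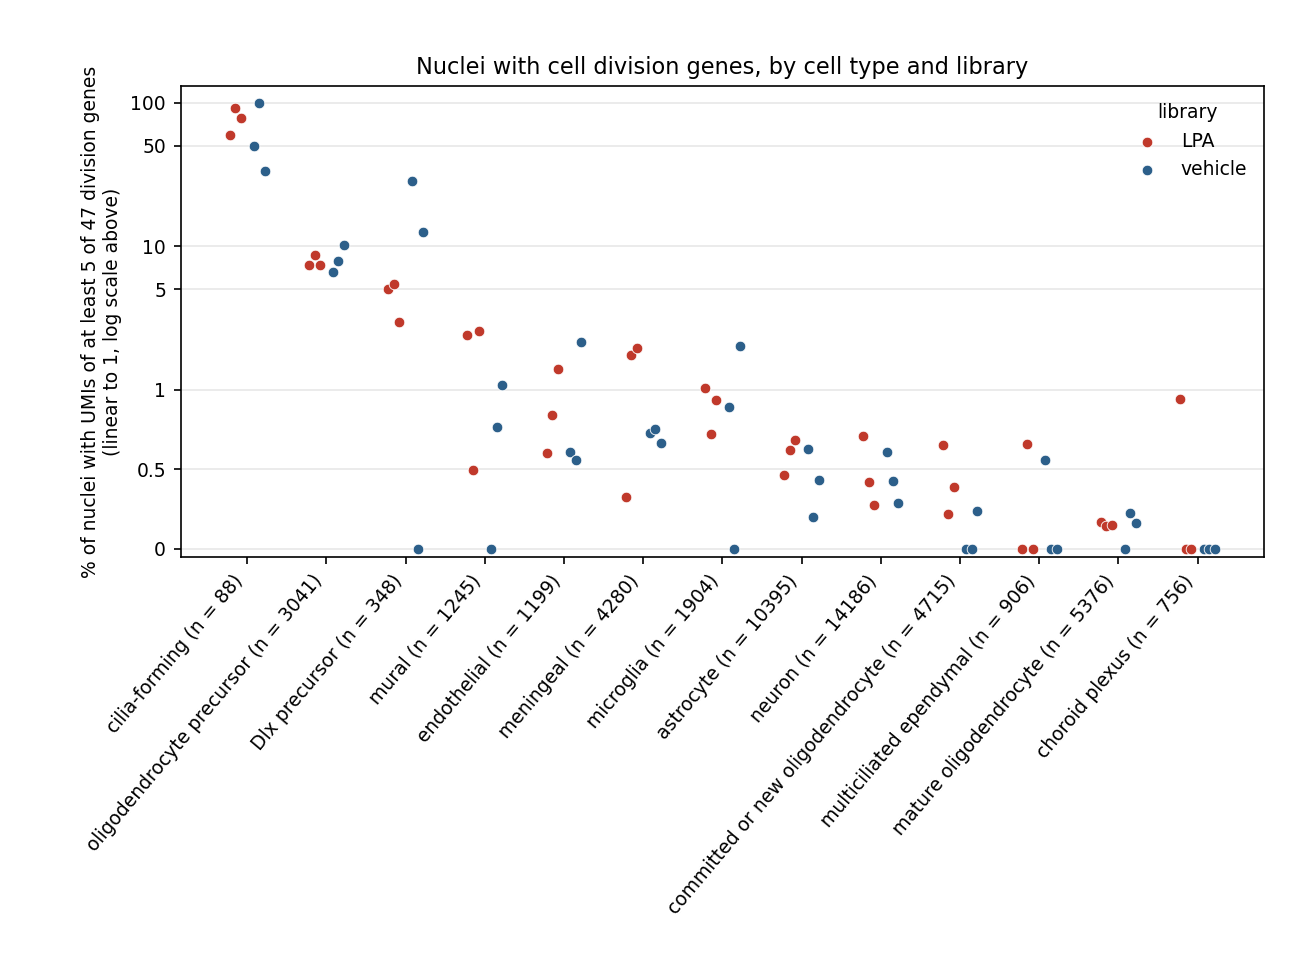
Share of nuclei with UMIs of at least 5 of 47 division genes, in percent (linear up to 1, log scale above), by cell type, where each point is 1 library, colored by LPA or vehicle, and macrophages are not drawn. OPCs lay between 6.61% and 10.1% in all 6 libraries, and neurons and mature oligodendrocytes lay below 0.71%.

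The number of genes per nucleus in OPCs had no sharp edge at the limit. Among OPCs, 75 nuclei held 3 of the genes, 39 held 4, 35 held 5 and 26 held 6, so many lay near it, while 168 held at least 8 and 87 held at least 15, up to 31. Among mature oligodendrocytes no nucleus held more than 9. Counted OPCs had a median of 3784 UMIs and the others 3123.5. Dlx precursors reached 23 genes and cilia-forming nuclei 18.

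**Figure D2:**
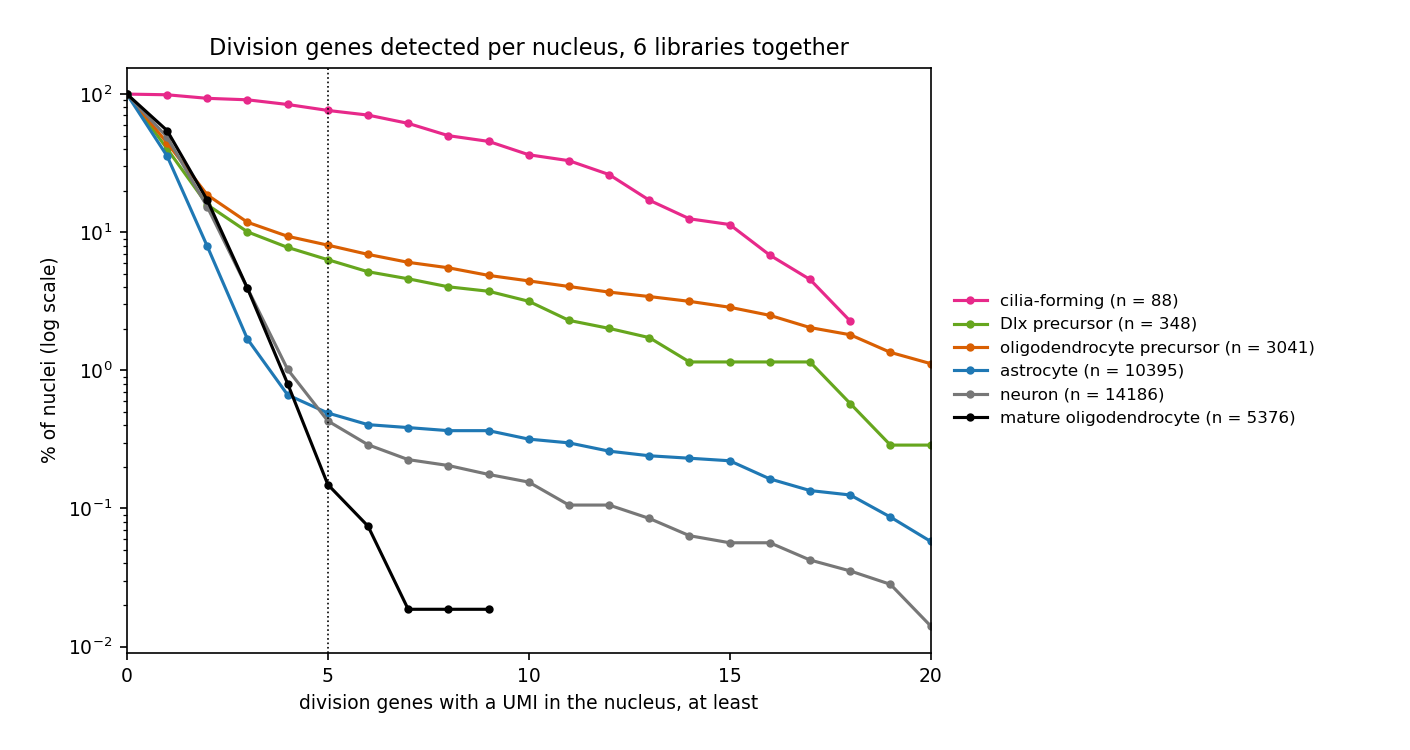
Number of the 47 division genes with a UMI in a nucleus (horizontal) against the share of nuclei of each type with at least that many (vertical, percent, log scale). The axis ends at 20 genes, which the OPC curve passes, while the mature oligodendrocyte curve ends at 9, and the dotted line marks 5 genes.

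Dlx precursors with division transcripts lay together in 1 of 3 sub-clusters. All 22 were among 74 nuclei led by Dlx6os1 and Ccnd2 (29.7%), although division genes were not used in clustering. The other sub-clusters, of 203 and 71 nuclei, had none, which allows shares of up to 1.48% and 4.23%. Astrocytes were uneven too, as 44 of 2035 nuclei of a cluster led by Gfap (2.16%) were counted, against 7 of 8360 other astrocytes (0.0837%). Of microglia, 1 of 201 in a cluster led by Gpnmb and Spp1 was counted, and 14 of 1703 others.

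Summed over the 47 genes, cilia-forming nuclei had a median of 2697 CPM (range over 6 libraries 2209 to 3171). Dlx precursors followed with 606 (303 to 1540) and OPCs with 603 (517 to 852), 2 ranges that overlap. Macrophages, with 144 UMIs of these genes in all, had 374 (240 to 710), endothelial nuclei 353 (301 to 517), mural nuclei 309 (237 to 410), microglia 306 (210 to 421), multiciliated ependymal nuclei 276 (261 to 295) and meningeal nuclei 252 (242 to 288), and neighbors in this order overlapped. Astrocytes (178), committed oligodendrocytes (162), mature oligodendrocytes (160), choroid plexus (159) and neurons (138) had the lowest medians. Leaving out cilia-forming nuclei, the highest median level was in OPCs for 21 of the 50 genes and in Dlx precursors for 14. For 5 of the 50, every OPC library lay above the highest library of the type with the next highest median. Libraries of the remaining types were not compared in this count.

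Top2a and Mki67, which are read from S phase to mitosis, had their highest medians in OPCs once cilia-forming nuclei were set aside. Top2a had a median of 39.4 CPM in OPCs (36.1 to 67.6) and 36.2 in Dlx precursors (5.95 to 183). It was 15.1 in endothelial nuclei (2.32 to 21.1), 8.17 in meningeal nuclei, 6.48 in mural nuclei and 5.69 in microglia (0 to 10.4). Neurons (1.60), committed oligodendrocytes (1.02), astrocytes (2.66), multiciliated ependymal nuclei (1.56), mature oligodendrocytes (0.461), choroid plexus (0) and macrophages (0, with no UMI in any library) were lowest. Every OPC library thus lay above every library of the types in the last 2 sentences.

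Mki67 had a median of 18.9 CPM in OPCs (12.2 to 29.0), 6.63 in microglia (0 to 15.3), 6.17 in mural nuclei (3.42 to 11.7) and 3.29 in Dlx precursors (0 to 32.8). OPCs overlapped with microglia, Dlx precursors, endothelial nuclei (median 1.77, up to 13.4) and macrophages (1 library at 15.4). Neurons (2.89), mature oligodendrocytes (2.58), meningeal nuclei (2.46), committed oligodendrocytes (2.24), choroid plexus (1.67), astrocytes (1.51), multiciliated ependymal nuclei (1.46) and macrophages (0, with 1 UMI in all) followed. Among OPCs, 200 nuclei held Top2a, 125 held Mki67 and 73 held both.

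Anln and Cit were highest by median in types that do not divide, and Pola1 was read in all types. Anln encodes anillin, a scaffold of the cytokinetic ring that also organizes septins in myelin, and its median was 266 CPM in mature oligodendrocytes (254 to 302) against 14.5 in OPCs. Cit encodes citron kinase, of which neurons have a shorter form, and its median was 228 in neurons (205 to 259), 111 in astrocytes and 107 in OPCs. Pola1, the catalytic subunit of DNA polymerase alpha, had 210 in Dlx precursors, 128 in OPCs (94.3 to 183) and 69.2 in neurons. Kif11, the motor that pushes spindle poles apart, named after its values were seen, had a median of 70.9 in multiciliated ependymal nuclei (64.7 to 107) and 17.3 in OPCs (10.3 to 23.0), and the ranges did not overlap.

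**Figure D3:**
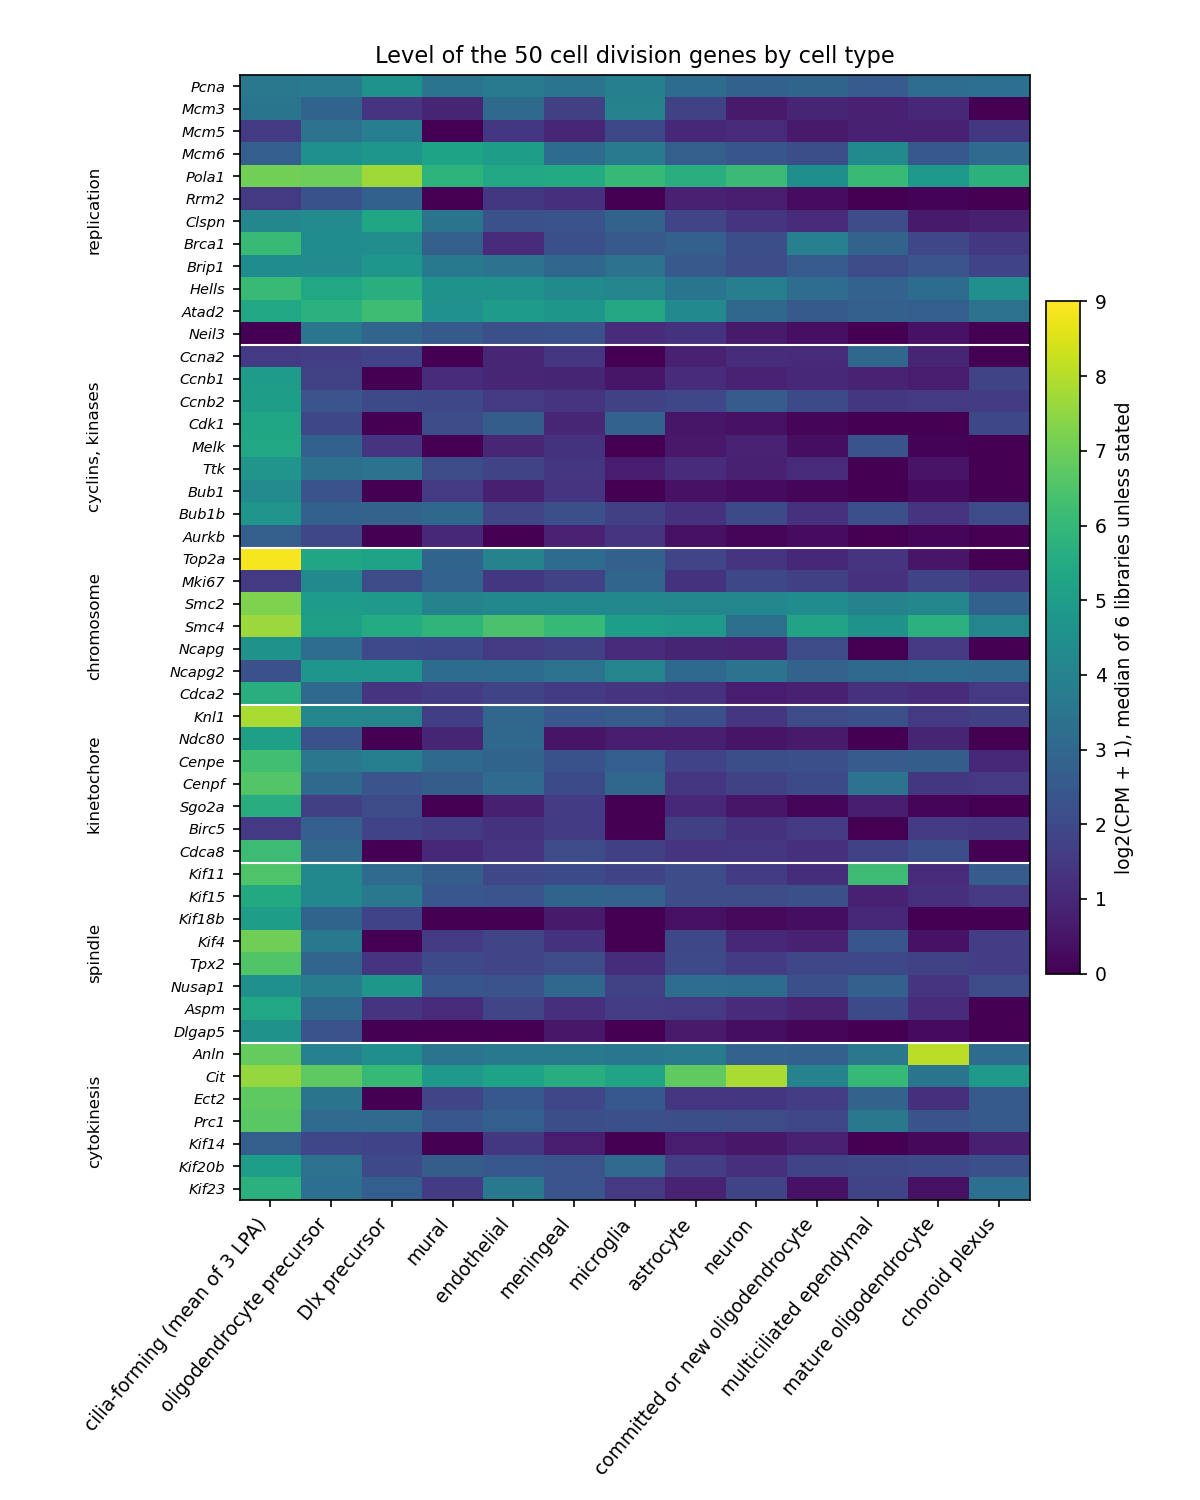
Level of each of the 50 division genes (rows, ordered by role) in each cell type but macrophages (columns), as log2(CPM + 1); the median of 6 libraries, or for cilia-forming nuclei the mean of 3 LPA libraries. Cilia-forming nuclei, OPCs and Dlx precursors show most genes, while Anln stands out in mature oligodendrocytes and Cit in neurons.

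LPA was then compared with vehicle, on UMIs summed per library and cell type. In bulk sums of this kind, fewer dividing cells and less RNA per dividing cell cannot be told apart. The share of OPCs with at least 5 of the genes was 37 of 497 (7.44%; 95% Wilson interval 5.45 to 10.1), 63 of 724 (8.70%; 6.86 to 11) and 39 of 526 (7.41%; 5.47 to 9.98) in LPA libraries 1 to 3. It was 23 of 348 (6.61%; 4.44 to 9.72), 44 of 560 (7.86%; 5.90 to 10.4) and 39 of 386 (10.1%; 7.48 to 13.5) in vehicle libraries 1 to 3. The groups overlapped, with means of 7.85% ± 0.735 and 8.19% ± 1.77 (SD, n = 3 each). The intervals cover counting error only.

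Median UMIs per OPC were 3320 to 3644 in LPA and 2558.5 to 3001.5 in vehicle libraries, so shares were also taken after thinning each nucleus to 1500 UMIs and requiring 3 genes. They were then 7.13%, 7.91% and 7.09% in LPA and 6.96%, 7.54% and 10.2% in vehicle libraries, and still overlapped. The summed level of the 47 genes in OPCs was 529, 634 and 517 CPM in LPA and 572, 638 and 852 in vehicle libraries. Vehicle library 3 was the highest, and the other 5 libraries lay between 517 and 638.

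No division gene passed the test in OPCs. Of the 50 genes, 38 passed the filter on low counts, and 0 were called by edgeR (adjusted p under 0.05, with the size of the log2 fold change 0.25 or more), where 0.251% of all genes tested were called. At an unadjusted p under 0.05, edgeR had 5 and DESeq2 3, and DESeq2 called 0. Of the 38 log2 fold changes, 5 were positive, and the median log2 fold change was -0.23, against -0.0068 over all genes. Without vehicle library 3 that median was -0.06, with 14 of 40 positive.

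By role, the medians in OPCs were -0.16 for replication and repair (11 tested), -0.25 for chromosome structure (7), -0.30 for cyclins and mitotic kinases (3), -0.36 for kinetochore and centromere (4), -0.24 for spindle proteins (7) and -0.03 for cytokinesis (6). Pola1, which starts new DNA strands, had 238, 338 and 220 UMIs in LPA and 103, 215 and 190 in vehicle OPCs, or 129, 133 and 117 against 94.3, 127 and 183 CPM. The groups overlapped, and the log2 fold change was -0.06 ± 0.13 (SE). Ttk, a kinase of the spindle checkpoint, had 19, 22 and 13 UMIs against 10, 15 and 16, and a log2 fold change of -0.30 ± 0.32.

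Top2a in OPCs had 67, 105 and 68 UMIs in LPA and 41, 87 and 70 in vehicle libraries, which is 36.2, 41.2 and 36.1 against 37.6, 51.2 and 67.6 CPM. LPA library 2 lay within the vehicle range, and the log2 fold change was -0.42 ± 0.16 (edgeR adjusted p = 0.504). Mki67 had 16.2, 21.6 and 12.2 CPM against 22.9, 13.5 and 29.0, with a log2 fold change of -0.25 ± 0.25 (edgeR adjusted p = 0.879). The groups overlapped for Mki67 too.

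Knl1, the kinetochore scaffold, had 9.72, 17.7 and 12.2 CPM in LPA OPCs and 16.5, 19.4 and 35.7 in vehicle OPCs. Vehicle library 1 lay below LPA library 2, and the log2 fold change was -0.74 ± 0.26 (edgeR adjusted p = 0.448). Kif15, a spindle motor, had 30, 47 and 30 UMIs against 15, 38 and 25 (-0.24 ± 0.23), and Cit, which acts late in cytokinesis, had 217, 274 and 198 against 138, 182 and 108 (-0.01 ± 0.10). The gene with the lowest p was Kif11, with 10.3, 15.3 and 12.8 CPM in LPA and 19.2, 23.0 and 22.2 in vehicle OPCs. Its groups did not overlap, but its log2 fold change of -0.71 ± 0.23 did not pass (edgeR adjusted p = 0.369).

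**Figure D4:**
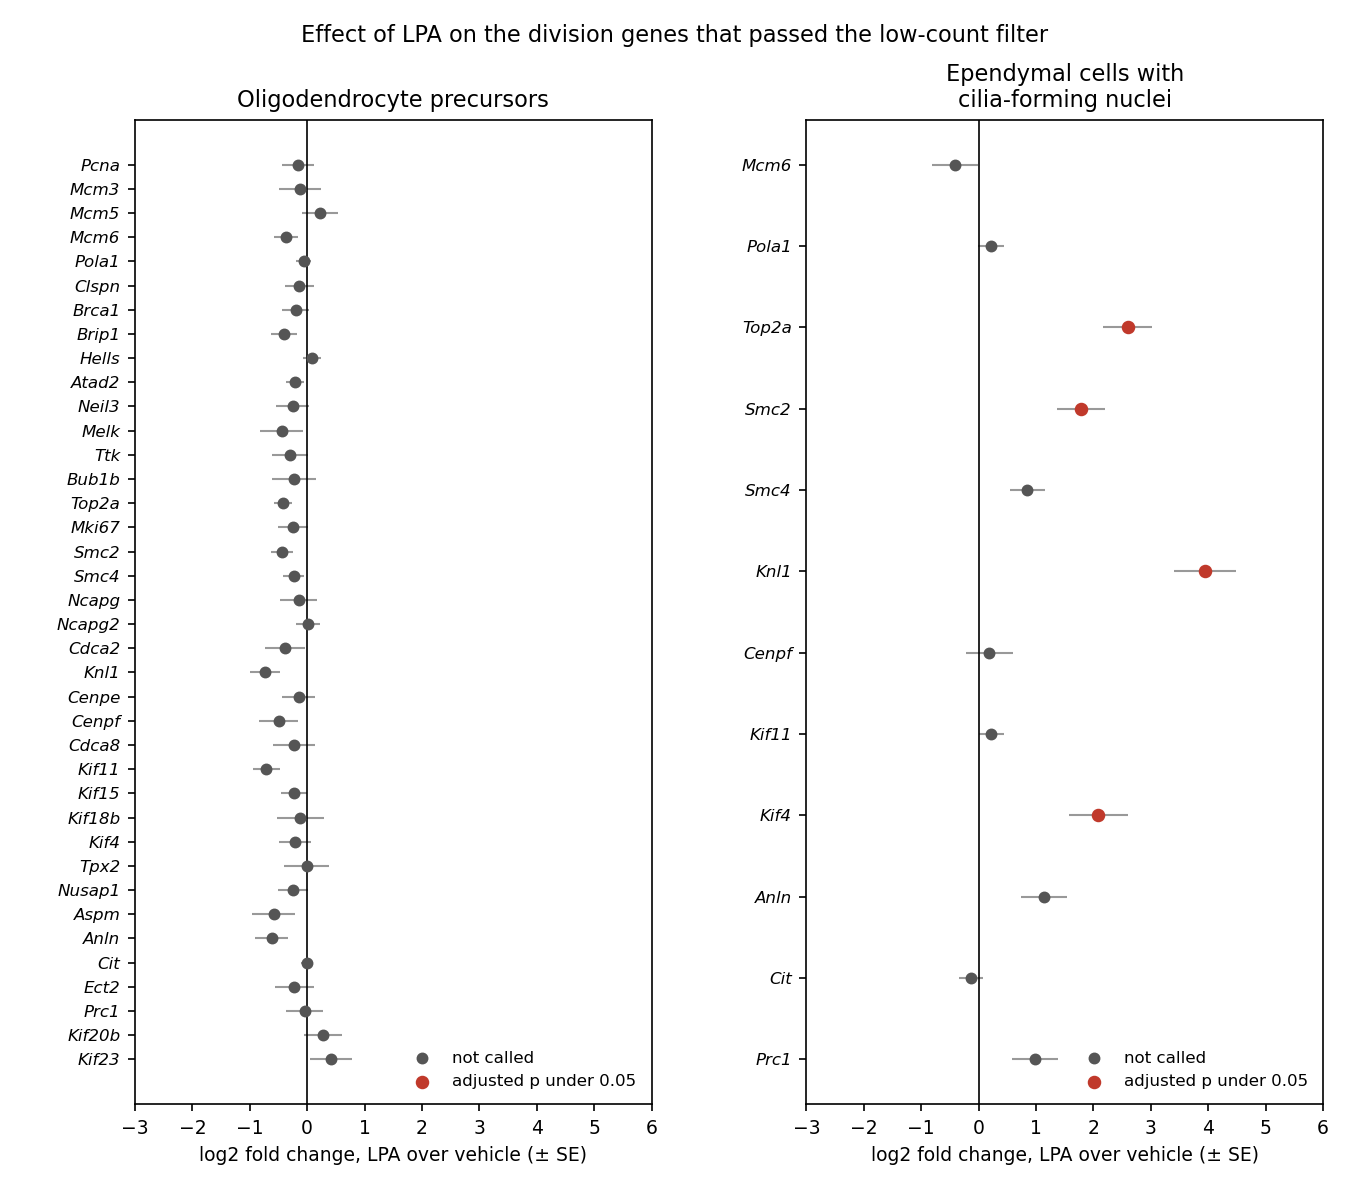
Log2 fold change ± SE, LPA over vehicle, of each division gene that passed the count filter in OPCs (left, 38 genes) and in ependymal cells with cilia-forming nuclei counted in (right, 12 genes), from edgeR; red points passed the test. On the left 33 of 38 points lie below 0 and none is red, and on the right the 4 red points are Knl1, Top2a, Kif4 and Smc2.

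Dlx precursors were too few for a comparison of most genes. LPA libraries held 79, 129 and 68 of them and vehicle libraries 14, 18 and 40, and the counted shares were 5.06%, 5.43% and 2.94% in LPA and 28.6%, 0% and 12.5% in vehicle libraries. The 0 is 0 of 18 nuclei, which allows a share of up to 16.7%, and vehicle libraries lay on both sides of the LPA values. With at least 3 of the genes, LPA libraries had 4.41% to 10.1% and vehicle libraries 15% to 28.6%, which did not overlap. After thinning, the shares were 5.56%, 7.44% and 3.28% against 33.3%, 14.3% and 12%, so that every vehicle library lay above every LPA library, with 12, 14 and 25 nuclei behind the vehicle values. The summed level of the 47 genes was 595, 602 and 303 CPM in LPA and 1540, 610 and 1247 in vehicle libraries, from 120, 183 and 51 against 47, 24 and 102 UMIs, and again did not overlap. All counted nuclei lay in the sub-cluster led by Dlx6os1 and Ccnd2. It had 12, 24 and 4 nuclei in LPA and 7, 9 and 18 in vehicle libraries. Within it the counted shares were 33.3%, 29.2% and 50% in LPA and 57.1%, 0% and 27.8% in vehicle libraries. These shares overlapped, and the 0 there is 0 of 9 nuclei. No test was made of these shares or sums. Only Pola1 passed the count filter, with a log2 fold change of -0.66 ± 0.42 that did not pass (edgeR adjusted p = 0.624), and 0 of 1 gene was called by edgeR or DESeq2 (0 unadjusted by either), where 0.221% of genes were called.

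In microglia, the resident macrophages of the brain, 4 of 390, 4 of 554 and 4 of 429 nuclei were counted in LPA libraries (1.03%, 0.722% and 0.932%). In vehicle libraries there were 1 of 112, 0 of 319 and 2 of 100 (0.893%, 0% and 2.00%), and the 0 allows up to 0.940%. The groups overlapped, and median UMIs per nucleus were 1800.5 to 2003 in LPA and 1245 to 1472 in vehicle libraries. Of 8 genes tested, edgeR called 0 (2 unadjusted) and DESeq2 0 (0 unadjusted), where 9.08% of all genes were called. The 8 were Mcm3, Smc4, Smc2, Cit, Ncapg2, Atad2, Hells and Pola1. Top2a and Mki67 did not pass the count filter and were not tested. Microglia outside the Gpnmb and Spp1-led cluster held 1, 10 and 6 Top2a UMIs in LPA and 0, 1 and 1 in vehicle libraries. That cluster held 2, 1 and 2 in LPA libraries and had 0 nuclei in vehicle libraries.

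Top2a was called in astrocytes. Its UMIs were 17, 45 and 27 in LPA and 9, 7 and 11 in vehicle astrocytes, or 2.74, 6.28 and 4.80 against 2.57, 1.14 and 2.22 CPM. Median UMIs per astrocyte were 3246 to 3412 in LPA and 2525.5 to 3013 in vehicle libraries. All LPA libraries lay above the vehicle libraries in CPM, LPA library 1 by little, and the log2 fold change was 1.32 ± 0.37 (edgeR adjusted p = 0.0326). It was the only one of 29 genes tested that was called (5 unadjusted; DESeq2 called 0, with 3 unadjusted), where 7.99% of all genes were called. The Gfap-led cluster held 11, 31 and 22 of these UMIs in LPA and 4, 1 and 4 in vehicle libraries, and other astrocytes held 6, 14 and 5 against 5, 6 and 7. That cluster had 436, 533 and 430 nuclei in LPA and 134, 252 and 250 in vehicle libraries. Without it, Top2a did not pass the count filter and was not tested, and 0 of the 22 genes tested were called by edgeR (4 unadjusted), where 2.28% of genes were. With the cluster kept, the Top2a call was lost without LPA library 2 (adjusted p = 0.186), LPA library 3 (0.0884), vehicle library 2 (0.199) or vehicle library 3 (0.0651), and with DESeq2 (0.0774).

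In the other types edgeR called none. Neurons had 39 genes tested (5 unadjusted), where 0.135% of all genes were called, and committed or new oligodendrocytes 23 (1 unadjusted), where 3.09% were. Mature oligodendrocytes had 18 (2 unadjusted; background 0.588%) and meningeal nuclei 14 (3 unadjusted; 0.98%). Mural (6 tested; 0.182%), endothelial (6; 0.111%), choroid plexus (3, with 1 unadjusted; 0.171%) and multiciliated ependymal nuclei (5; 1.72%) followed. In these types DESeq2 called 0 as well, with 4 unadjusted in neurons, 2 in meningeal nuclei, 1 each in committed and mature oligodendrocytes and 0 in the rest. No gene passed the count filter in macrophages.

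Cilia-forming nuclei came mostly from LPA libraries. They were named for Mcidas, the switch for multiciliation, Deup1, which builds the deuterosomes where centrioles multiply, Cdc20b and Ccno. The 88 nuclei held 1638 UMIs of Cdc20b, 585 of Deup1 and 189 of Mcidas, and multiciliated ependymal nuclei held 41, 171 and 3. LPA libraries had 20, 26 and 36 of them beside 177, 152 and 187 multiciliated ependymal nuclei (10.2%, 14.6% and 16.1% of both together). Vehicle libraries had 2, 1 and 3 beside 180, 81 and 129 (1.10%, 1.22% and 2.27%), so the ranges did not overlap. The counted share was 12 of 20 (60.0%), 24 of 26 (92.3%) and 28 of 36 (77.8%) in LPA libraries and 1 of 2, 1 of 1 and 1 of 3 in vehicle libraries.

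With cilia-forming nuclei counted in the ependymal class, 4 of 12 genes tested were called, all higher in LPA, where 4.07% of all genes were called. The other 38 genes did not pass the count filter. Each of the 4 called genes passed it through the LPA libraries, so a difference was built into their passing, and nothing is read from their number against that background. Knl1 had 24, 36 and 38 UMIs in LPA and 1, 1 and 1 in vehicle libraries (log2 fold change 3.95 ± 0.55, edgeR adjusted p = 2.5418e-05). Top2a had 31, 66 and 97 against 5, 3 and 8 (2.60 ± 0.43, edgeR adjusted p = 0.000235). In CPM of this class, each LPA library lay above each vehicle library for both genes, and far above for Knl1. For Top2a the gap was smaller, with 37.9 CPM in LPA library 1, the lowest, and 25.1 in vehicle library 3, the highest.

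Smc2, a subunit of the condensin ring that compacts chromosomes, had 20, 30 and 60 UMIs against 8, 3 and 5 (1.78 ± 0.41, edgeR adjusted p = 0.00982). Kif4, a motor carried on chromosome arms, had 17, 17 and 26 against 4, 0 and 3 (2.08 ± 0.51, edgeR adjusted p = 0.0145). The cilia-forming nuclei held 97.1% of the class's Top2a UMIs, 89.1% of Knl1, 79.1% of Kif4 and 54.0% of Smc2. In multiciliated ependymal nuclei alone these 4 genes did not pass the count filter and were not tested, with Top2a at 1, 3 and 0 UMIs against 1, 0 and 1 and Knl1 at 4, 3 and 1 against 1, 1 and 1. The 5 genes tested there were Mcm6, Smc4, Cit, Kif11 and Pola1, and edgeR and DESeq2 called 0 of them (0 unadjusted by either). DESeq2, with cilia-forming nuclei counted in, called 1 (6 unadjusted) and gave no adjusted p for 7 of the genes. These 7 were Anln, Cenpf, Kif4, Knl1, Mcm6, Prc1 and Smc2, so DESeq2 could not call Knl1, Kif4 or Smc2.

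The LPA effect was then tested against that in OPCs, as the difference of log2 fold changes in 1 fit with library as a block. With cilia-forming nuclei counted in, 5 of 27 genes differed, all with the higher effect in ependymal nuclei (12 unadjusted), where 1.31% of all genes differed. Cilia-forming nuclei came mostly from LPA libraries and were counted in after seeing the data, so a difference was built into this class. Their number and their levels per nucleus cannot be told apart here, and nothing is read from the number of genes against that background. The differences were 4.74 ± 0.61 for Knl1 (edgeR adjusted p = 3.5068e-09), 2.93 ± 0.37 for Top2a (2.8298e-09), 2.16 ± 0.41 for Smc2 (0.000226), 2.34 ± 0.63 for Kif4 (0.0283) and 1.91 ± 0.51 for Anln (0.0287). Without cilia-forming nuclei 0 of 24 genes differed by edgeR (2 unadjusted), where 0.531% did. Against Dlx precursors 0 of 21 differed (0 unadjusted; 0.494%), and against microglia 0 of 26 (3 unadjusted; 3.2%). DESeq2 was not run for these differences.

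Division genes were read in a different mix in cilia-forming nuclei than in dividing OPCs. OPCs with at least 5 of the genes are chosen on those genes, so their levels are raised by the choice, and the comparison with cilia-forming nuclei is a description over the 3 LPA libraries. Of the 50 genes, 8 were higher in cilia-forming nuclei with no overlap of the libraries, 20 were lower and 22 overlapped. The same count was not made over all genes, so no excess is read from these numbers. Replication genes were 11 of the 20 that were lower, of 12 in the list. They took 8.43% of the 1080 UMIs of the 47 genes in cilia-forming nuclei and 35.8% of 2513 in the OPCs (32.7% in vehicle OPCs). Kinetochore genes took 20.5% against 9.35%.

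Mki67 differed most clearly from Top2a. Mki67 had 1 UMI in all 88 cilia-forming nuclei, or 1.87 ± 3.23 CPM (SD, n = 3), against 130 ± 21.6 in the OPCs with at least 5 genes. Top2a had 465 ± 111 against 366 ± 31.0, and the libraries overlapped. Of the 88 nuclei, 71 (80.7%) held Top2a and 1 (1.14%) held Mki67; of all OPCs, 6.58% and 4.11% did, and of neurons 0.627% and 1.44%.

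Within roles, the genes named in the rest of this comparison were chosen after their values were seen. Neil3, a DNA glycosylase, had no UMI in cilia-forming nuclei of LPA libraries, against 101 ± 20.0 CPM in the OPCs. Mcm6 had 5.43 against 111, Atad2, a chromatin factor of S phase, 41.2 against 375, and Ncapg2, of condensin II, 3.73 against 183. On the other side, Knl1 had 234 ± 31.5 against 127 ± 24.3, Cenpf, a protein of the outer kinetochore, 96.6 against 39.3 and Kif4 132 against 94.9. Ccnb1, which drives entry into mitosis with Cdk1, had 29.4 ± 18.8 against 5.37 ± 1.49. It rested on only 1, 6 and 5 UMIs in cilia-forming nuclei and 1, 1 and 1 in the OPCs. Cit, Tpx2, Prc1 and Anln completed the 8 that were higher.

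**Figure D5:**
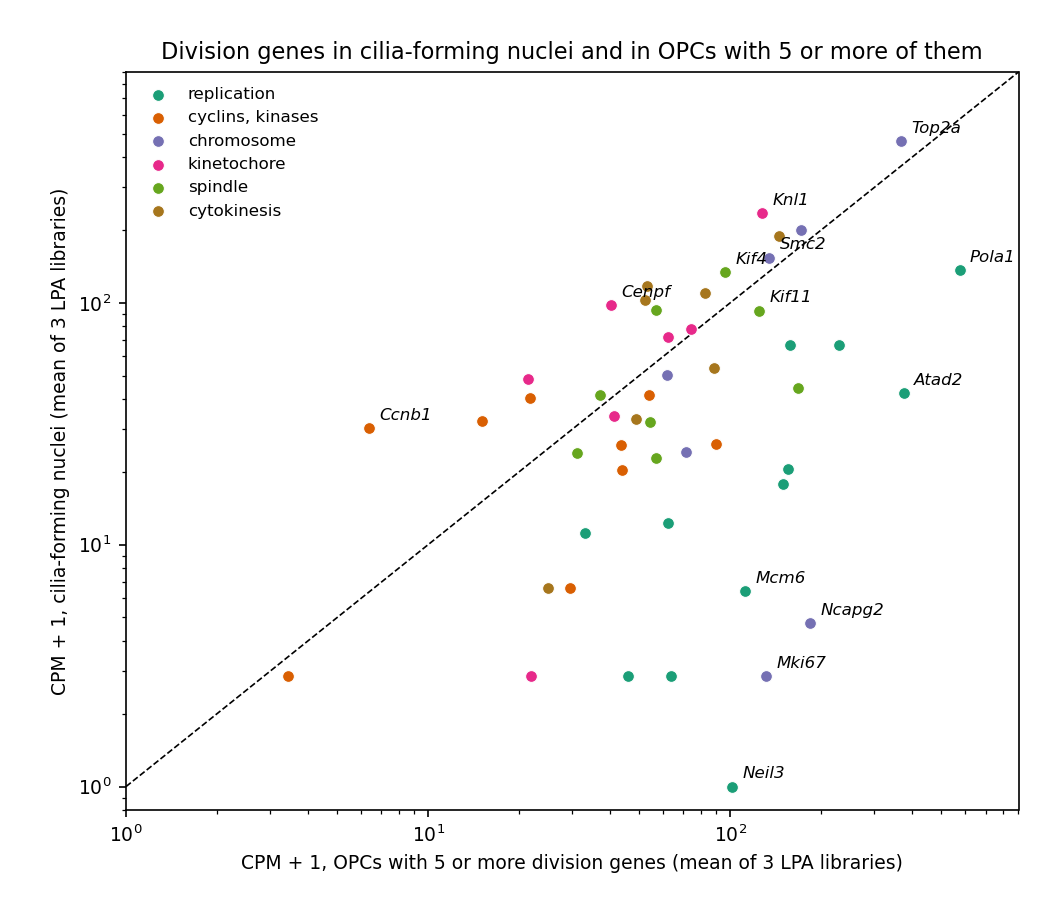
Level of each division gene in cilia-forming nuclei (vertical) against OPCs with at least 5 of the genes (horizontal), mean of 3 LPA libraries in CPM + 1 on log axes, colored by role; the dashed line marks equal levels. Replication genes and Mki67 lie below the line, and Knl1 and Top2a lie above it.

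Other genes of the cell cycle were read from a list of 137 that did not include the 50. In OPCs, 89 were tested and 1 was called: Ccne1, cyclin E1, which drives entry into S phase, had 2, 6 and 2 UMIs in LPA and 8, 14 and 6 with vehicle. It changed by -2.13 ± 0.48 on the log2 scale (edgeR adjusted p = 0.0490), and the call was lost on leaving out any library. Only the vehicle libraries reached the level of the count filter for Ccne1, so a difference was built into its passing. Nothing is read from this call. In astrocytes, 89 were tested. E2f7, which represses E2F target genes, was higher with LPA (16, 29 and 16 UMIs against 3, 5 and 7, 1.63 ± 0.37, edgeR adjusted p = 0.0106). Only the LPA libraries reached the level of the count filter for E2f7, so a difference was built into its passing too. Cdkn1a, the inhibitor p21, was lower, with 3.87, 3.77 and 3.73 CPM against 5.72, 7.68 and 8.69 (-0.97 ± 0.23, edgeR adjusted p = 0.0117). Without the Gfap-led cluster E2f7 did not pass the count filter and Cdkn1a did not pass the test (edgeR adjusted p = 0.0896). The background in each type is the one given above for the division genes.

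In microglia, 38 were tested and Ccnd3, a cyclin of G1, was lower in LPA, with 749, 542 and 488 CPM against 1501, 1032 and 1340 (-1.10 ± 0.14, edgeR adjusted p = 4.8648e-07). All LPA libraries lay below all vehicle libraries. In ependymal nuclei with cilia-forming nuclei counted in, 36 were tested and 6 were higher in LPA. Ckap2l, a spindle protein, had 36, 29 and 52 UMIs against 3, 1 and 0 (3.81 ± 0.49, edgeR adjusted p = 7.6334e-06). Plk4, the kinase that starts centriole assembly, had 43, 45 and 74 against 8, 4 and 3 (2.43 ± 0.34, edgeR adjusted p = 2.7828e-05). Stil, its partner in that step, had 39, 56 and 126 against 6, 2 and 8 (2.77 ± 0.43, edgeR adjusted p = 0.00010006), and the cilia-forming nuclei held 89.3% of the Plk4 and 93.7% of the Stil UMIs. Hjurp, Kif18a and E2f7 were the other 3. In multiciliated nuclei alone Hjurp passed the count filter and was not called, and the other 5 were not tested. Those 5 passed it only with the cilia-forming nuclei, which came mostly from LPA libraries. A difference was thus built into their passing, and nothing is read from the number called. None of the 137 was called in the other types.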

How the data were processed

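Count matrices of UMIs per gene and nucleus were deposited by the authors for each library, made with Cell Ranger 4.0.0 on an mm10 pre-mRNA reference, so intronic reads were counted; 10x Genomics 3′ version 3 chemistry was used. The counts are raw, and UMIs collapse PCR copies. Nuclei with under 300 genes, over 1% mitochondrial UMIs or UMIs above a limit set from the interquartile range were removed, as in the study's methods. The limit used here was the upper quartile plus 1.5 interquartile ranges. The remaining nuclei were clustered with scanpy 1.11.5 (3000 variable genes, 40 components, Leiden resolution 1) and named from marker lists; the limits for naming a cluster were set after clusters were seen. Doublets were called with Scrublet and kept, apart from an alternative without them. The genes and lists were chosen with earlier results of these data known.

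UMIs were summed per library and type with at least 10 nuclei in every library and tested with edgeR 4.0.16 (quasi-likelihood, TMM, default low-count filter), with Benjamini-Hochberg adjustment over all genes tested in that type. A gene was called where the adjusted p was under 0.05 and the log2 fold change was 0.25 or more in either direction. CPM values are UMIs per 1000000 UMIs of that type and library, without TMM factors. The labels number the 6 brains as separate samples, and all libraries differed by more than sampling noise. On simulated counts with 200 genes changed by a fold of 2, the test recovered 73.8% in OPCs, 87.7% in astrocytes, 57.4% in multiciliated ependymal nuclei, 50.3% in microglia and 39.3% in Dlx precursors.

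Genes given with values per library were Top2a and Mki67, the gene of each role with the highest mean in OPCs, called genes (up to 3 per direction and type), and Anln, Cit and Pola1. Alternatives were DESeq2 1.42.0, no count filter, a replicate block, each library left out, doublets left out, no mitochondrial or UMI limit, resolution 2, division genes kept in the clustering and other limits for the shares. Results with cilia-forming nuclei counted in, under these settings, and astrocytes without the Gfap-led cluster were added after seeing the data.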

Additional observations from a re-analysis of the deposited data

Results flagged for a closer look

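The LPA effect in ependymal nuclei, with cilia-forming nuclei counted in, differed from that in OPCs for 5 division genes. The differences of the log2 fold changes were 4.74 for Knl1, 2.93 for Top2a, 2.34 for Kif4, 2.16 for Smc2 and 1.91 for Anln, each higher in the ependymal class and each past the edgeR test of the difference. LPA libraries held 20, 26 and 36 cilia-forming nuclei and vehicle libraries 2, 1 and 3, and without these nuclei 0 of 24 genes differed (2 unadjusted). Counting these nuclei in thus built a difference into the class, and nothing is read from the number of genes. Anln alone did not pass in the ependymal class itself (edgeR adjusted p = 0.125).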

How the results depend on the processing

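Nuclei were few in Dlx precursors and in vehicle cilia-forming nuclei, which limits what those comparisons can show, and names depend on clusters. The cause of the changes listed here was not tested. Astrocytes had 1 division gene called, but 2 with no count filter and 0 with DESeq2, the replicate block, no mitochondrial filter, no UMI limit or no Gfap-led cluster (0 to 2 with 1 library left out). Committed oligodendrocytes had 1 with no filter (0 to 1). The ependymal class with cilia-forming nuclei, with 4 called, had 8 with no filter and 1 with DESeq2 (2 to 7). Set beside multiciliated nuclei alone, where these 4 genes failed the count filter, the count was 4; the 5 differences from OPCs numbered 3 to 5. Other cell cycle genes called were 4 in astrocytes with no filter, 1 with DESeq2 or resolution 2 and 0 without the Gfap-led cluster (0 to 3), 2 in Dlx precursors with resolution 2, 5 in meningeal nuclei with no mitochondrial filter, 2 in microglia with no UMI limit (1 to 2) and 1 in mural nuclei with the replicate block (0 to 1). In OPCs they were 0 with DESeq2, the block, doublets left out, no mitochondrial filter or resolution 2 (0 to 0). In the ependymal class they were 12 with no filter and 2 with DESeq2 (3 to 7), and 6 beside multiciliated nuclei alone, where only Hjurp of the 6 was tested.

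With a limit of 3 genes the mean shares were 12.2% (LPA) and 11.2% (vehicle) in OPCs, 7.36% and 20.1% in Dlx precursors, 2.44% and 1.40% in microglia, and 6.20% and 2.68% in multiciliated ependymal nuclei. With a limit of 8 they were 5.06% and 6.00% in OPCs, 2.79% and 8.10% in Dlx precursors, 0.421% and 0.333% in microglia, and 52.7% (51.7% with resolution 2 and a limit of 5) and 0% (0 of 6) in cilia-forming nuclei. Thinned, they were 1.69% and 2.57% in microglia and 0.643% in LPA multiciliated nuclei. Without vehicle replicate 3 the log2 fold change of Mki67 in OPCs was 0.0084, in a range of -0.57 to 0.0084 over the libraries left out. DESeq2 gave no adjusted p for 7 division genes in the ependymal class, with Knl1, Kif4 and Smc2 among them. Pairing by replicate number was not established. Same-numbered libraries correlated at 0.107, 0.2437 and -0.0327, and differently numbered ones at -0.2652 to 0.199. With so few libraries per group these values cannot exclude a pairing. The replicate block left 4 genes called in the ependymal class and 0 in OPCs.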

Other observations

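Unnamed nuclei, which lay in clusters with markers of more than 1 type, held 198 of the 751 nuclei with at least 5 division genes, or 2.24% of 8840. Of these 198, 79.3% were called doublets, as were 74.1% of the other unnamed nuclei. In all nuclei together, named or not, those with at least 5 of the genes were 130, 181 and 146 in LPA libraries (1.61%, 1.86% and 1.69%) and 78, 107 and 109 in vehicle libraries (1.03%, 0.917% and 0.928%). The ranges did not overlap, and the cause was not tested. The mix of cell types differed between the libraries, as the LPA libraries held 82 of the 88 cilia-forming nuclei and 276 of the 348 Dlx precursors. Counted nuclei in LPA and vehicle libraries were 139 and 106 OPCs, 120 and 78 unnamed, 64 and 3 cilia-forming, 27 and 34 neurons and 13 and 9 Dlx precursors. The counted share of unnamed nuclei was 2.77% to 3.16% in LPA and 1.36% to 2.04% in vehicle libraries.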
